A study of Mus musculus with 23 samples.

Results

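The imprinted growth genes and noncoding RNAs described here are H19, Igf2, Meg3, Rian, Mirg, Dlk1, Cdkn1c, Peg3, Grb10 and Plagl1, 10 genes found by symbol among the 55573 gene IDs of the count table. They were followed in the quadriceps, a thigh muscle that extends the knee, of 23 C57BL/6J mice that were 8 to 10 weeks old when used. For 14 days, 6 males and 5 females carried a subcutaneous slow-release pellet that held 50 mg of corticosterone with 50 mg of cholesterol. Another 6 males and 6 females carried a vehicle pellet of 100 mg cholesterol. Corticosterone is the main glucocorticoid of mice, and all mice were fasted for 5 h before death. Each mouse gave 1 bulk library of stranded, mRNA-enriched RNA. In names such as M8 and F10 the letter stands for the sex, and odd numbers had vehicle and even numbers corticosterone.

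An imprinted gene is transcribed mainly from the copy that came from 1 parent, because the other copy was marked by DNA methylation in the germ line or is silenced by a neighbour that was. Many imprinted genes set growth before and after birth: those read from the paternal copy, such as Igf2, Dlk1, Peg3 and Plagl1, mostly promote growth or hold back differentiation, and those read from the maternal copy, such as Cdkn1c and Grb10, mostly limit it. H19, Meg3, Rian and Mirg are maternally expressed RNAs that encode no protein, and H19 is known to be abundant in fetal and regenerating muscle. The counts do not tell the parental copies apart, so that levels and not imprinting were measured.

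The 10 genes lie in 5 parts of the mouse genome (GRCm38). H19 (chr7:142575529-142578143) and Igf2 (chr7:142650766-142666816) are neighbours, with Cdkn1c (chr7:143458339-143461050) farther along and Peg3 (chr7:6703892-6730431) at the other end of chromosome 7. Dlk1 (chr12:109452823-109463336), Meg3 (chr12:109541001-109571726), Rian (chr12:109603940-109661716) and Mirg (chr12:109729764-109749460) follow each other on the plus strand of chromosome 12. Grb10 (chr11:11930508-12038683) and Plagl1 (chr10:13060504-13131694) stand alone. Of the noncoding RNAs, H19 holds 2 mature miRNAs, Meg3 3, Rian 6 and Mirg 26 on its own strand, and 2 further ones lie within Igf2. The libraries measure the host RNAs and not the mature miRNAs, which are shown so that a reader can see what the hosts carry (RefSeq sequences, GRCm38.p6). Capitals mark the seed, bases 2 to 8, by which a miRNA recognises its targets. Both miRNAs of H19 (miR-675-5p and miR-675-3p), a pair from an exon of Meg3 (miR-770), 1 from within Rian, outside its annotated exons (miR-370-3p), and 3 from Mirg were chosen, the last 2 because they share a seed, the single case among the miRNAs of these hosts.
miR-675-5p: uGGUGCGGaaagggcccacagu
miR-675-3p: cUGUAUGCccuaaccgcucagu
miR-770-5p: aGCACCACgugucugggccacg
miR-770-3p: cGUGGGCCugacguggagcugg
miR-370-3p: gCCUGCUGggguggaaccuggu
miR-134-5p: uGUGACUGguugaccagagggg
miR-453: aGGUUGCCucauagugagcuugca
miR-496a-5p: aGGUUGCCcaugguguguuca

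Promoter sequences were at hand for 8 of the 10 genes, as 13 entries, and the 250 bases before the start were searched on both strands. The sequences of Meg3 (chr12:109540746-109540995, plus strand), Peg3 (chr7:6730420-6730669, minus strand), Rian (chr12:109603695-109603944, plus strand) and Mirg (chr12:109734731-109734980, plus strand, inside the annotated gene) are printed because these RNAs varied together between mice, as described further on. Capitals mark the letters TGACGTCA, the palindrome known as the cyclic AMP response element, in Meg3 and Peg3, and AGAACA on the minus strand, the half-site of the glucocorticoid receptor, in Rian (1 match) and Mirg (2 matches). Of the 4 Igf2 entries 1 also held a half-site, and no other entry held any.
Meg3 promoter: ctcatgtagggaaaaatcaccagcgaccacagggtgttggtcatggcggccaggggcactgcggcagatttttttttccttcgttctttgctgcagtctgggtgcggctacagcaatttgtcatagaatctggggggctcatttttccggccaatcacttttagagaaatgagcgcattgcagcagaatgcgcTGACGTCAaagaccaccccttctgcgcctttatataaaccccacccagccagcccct
Peg3 promoter: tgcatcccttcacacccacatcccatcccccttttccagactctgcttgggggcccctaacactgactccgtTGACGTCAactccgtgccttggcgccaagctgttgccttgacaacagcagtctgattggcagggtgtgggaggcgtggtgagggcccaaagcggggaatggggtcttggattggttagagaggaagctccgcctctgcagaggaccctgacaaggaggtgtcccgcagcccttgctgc
Rian promoter: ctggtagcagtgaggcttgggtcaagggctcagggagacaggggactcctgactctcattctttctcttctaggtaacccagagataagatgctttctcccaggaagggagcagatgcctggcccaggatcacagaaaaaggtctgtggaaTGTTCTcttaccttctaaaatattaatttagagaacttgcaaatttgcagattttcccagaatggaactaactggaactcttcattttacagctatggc
Mirg promoter: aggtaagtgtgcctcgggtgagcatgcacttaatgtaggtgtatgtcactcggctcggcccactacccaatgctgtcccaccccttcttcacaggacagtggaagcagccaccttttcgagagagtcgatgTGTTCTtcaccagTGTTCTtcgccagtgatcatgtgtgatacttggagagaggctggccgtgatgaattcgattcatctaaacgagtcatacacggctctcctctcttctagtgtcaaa
TGACGTCA stood in 1.55% of the 32851 promoters of this length and AGAACA in 16.1% of them, and the 2 did not overlap in any of the 4 sequences shown. The full glucocorticoid response element in the form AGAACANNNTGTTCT was in none of the 13 entries and in 0.00913% of all promoters. These matches describe letters and not binding.

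Muscle genes were high in every mouse: skeletal actin Acta1 ranged from 24181 to 55472 CPM (counts scaled to a common, normalized library size) and muscle creatine kinase Ckm from 10766 to 39273 CPM. Gene counts ranged from 20904150 to 21984477 per mouse, so that 3 counts, the least taken as a level, were at most 0.166 CPM. Transcripts of other cell types differed between libraries. The summed level of 10 hepatocyte markers was 2634 CPM in M8, 2581 in F10, 1565 in M9, 1544 in M12 and 1148 in F6, and at most 342 CPM in any other mouse. The sum of 10 adipocyte markers in corticosterone-treated females was lowest in F8 (46.3 CPM) and highest in F6 (4296 CPM). The sum of 10 fibroblast markers was 1147 to 1767 CPM in vehicle-treated males, 438 to 622 CPM in treated males, 1022 to 2141 CPM in vehicle-treated females and 703 to 1431 CPM in treated females, and no marker of these lists was at 0 in a whole group. In bulk RNA, fewer cells of a type and less RNA per cell cannot be told apart.

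Levels were taken per kilobase of exon, without bases shared with a protein-coding gene on the same strand, which applied to Igf2 only. Bases shared with small RNA genes were kept. On this scale H19 was the most abundant of the 10 genes in every group. Its mean was 111 CPM per kilobase in vehicle-treated males, 372 in treated males, 394 in vehicle-treated females and 599 in treated females, and its lowest mouse stood above the highest mouse of any other member in each group. Cdkn1c came next in every group with 8.16 to 10.3 CPM per kilobase. Its range overlapped that of Grb10 in vehicle-treated females, where Grb10 had 7.75 ± 0.973 CPM per kilobase (SD, n = 6), and in no other group. Peg3, Meg3 and Rian followed, with 1.77, 1.34 and 0.874 CPM per kilobase in vehicle-treated males, and neighbours in this order overlapped between mice. Dlk1, Igf2, Plagl1 and Mirg formed the lowest set in vehicle-treated mice, with means from 0.143 to 0.213 CPM per kilobase in males, where the ranges of all 4 overlapped. In vehicle-treated females every value of Igf2 (0.284 to 0.436 CPM per kilobase) lay above every value of Mirg (0.087 to 0.266), and the other ranges overlapped. The place of Igf2 depends on the length used: over its 2127 unshared exon bases its mean in vehicle-treated males was 0.208 CPM per kilobase, and over all 5723 exon bases it was 0.0772, below the other members. In treated females Peg3 reached 5.41 ± 0.586 CPM per kilobase (SD, n = 5) and overlapped Grb10 at 5.23 ± 0.282. Dlk1 was then last with 0.117 ± 0.0581.

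**Figure D1:**
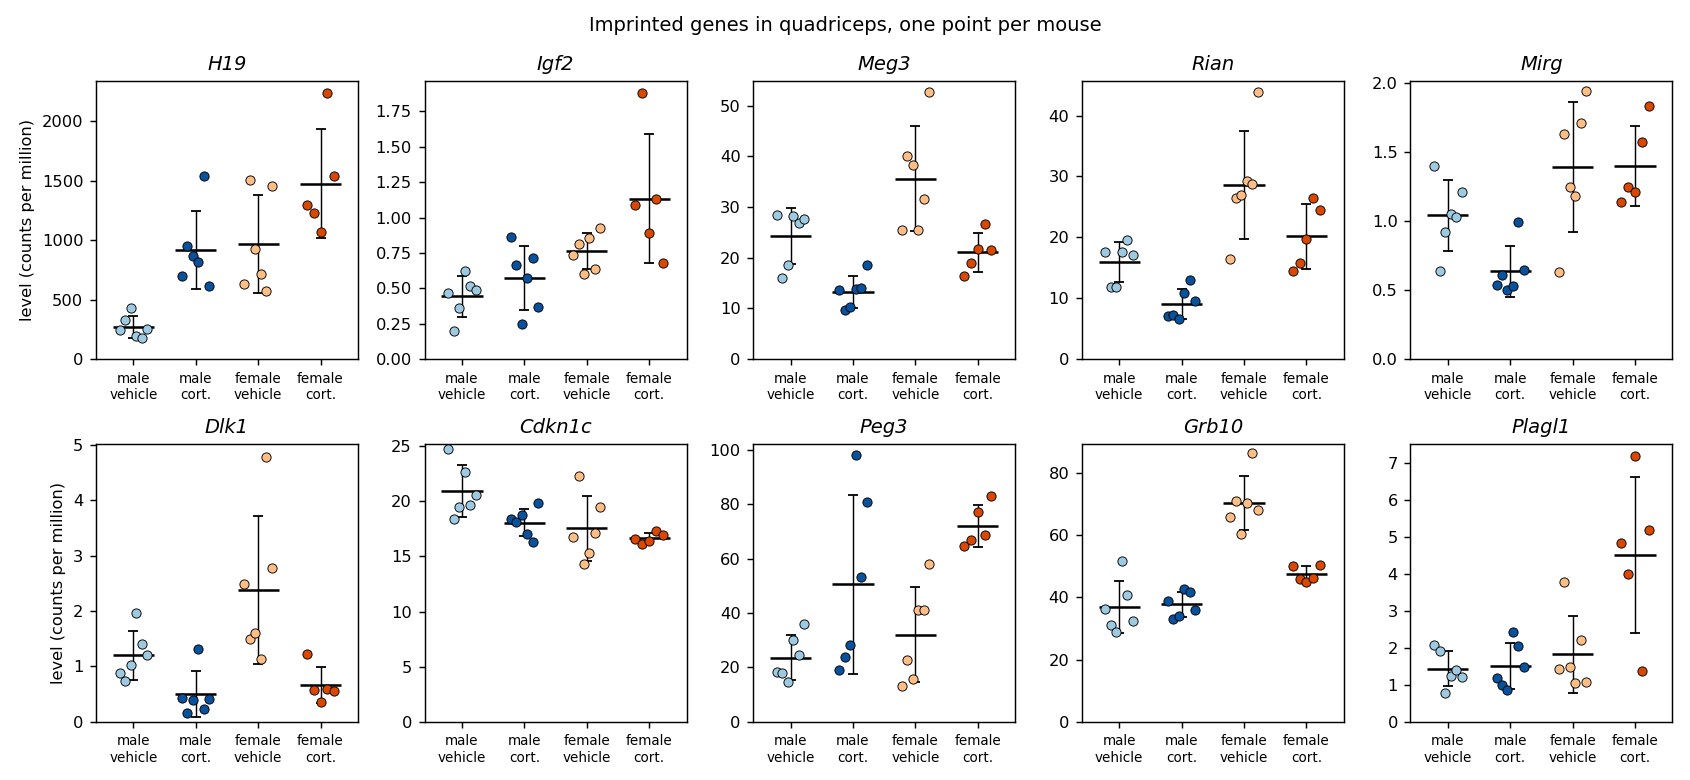
Level of each gene in CPM (linear axes from 0) in every mouse, grouped by sex and treatment (cort., corticosterone); points are mice, horizontal lines group means and bars the SD. All 6 treated males lie above all 6 vehicle-treated males for H19, and treated females lie below vehicle-treated females for Grb10 and above them for Peg3.

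A gene was tested when 4 or more mice of a group had over 20 normalized counts of it, which 13049 genes and 9 of the 10 members did, and Igf2 did not. A call is a p-value under 0.01 after Benjamini-Hochberg adjustment over the 13049 genes (edgeR's quasi-likelihood test, 1 model with all 23 mice). Replicates are separate mice. In males 1 member rose (H19) and 2 fell (Meg3 and Rian) with corticosterone, 6 not passing, where 26.3% of all tested genes were called, 13.2% higher and 13.1% lower. In females none rose and 3 fell (Meg3, Dlk1 and Grb10), against 13.4% of all tested genes, 7.4% higher and 6% lower. The share of members called, 3 of 9 in each sex, is set by few genes and was near the background in males. Corticosterone-treated and vehicle-treated mice did not overlap for 1 member in males (H19) and for 2 in females (Peg3 and Grb10), where 21.9% and 7.72% of all tested genes did not overlap. The median size of the log2 fold change (log2FC) was 0.82 over members and 0.29 over all genes in males, and 0.61 and 0.23 in females. The members were chosen with earlier results of these data known, and some, such as Dlk1 and Mirg, had low counts, so that these medians are descriptions.

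H19, the maternally expressed RNA beside Igf2 that is known to hold back growth, rose in males. Vehicle-treated males had 180 to 427 CPM (median 250) and treated males 618 to 1543 CPM (median 843). Vehicle-treated females had 573 to 1504 CPM (median 823), and the treated females F2, F4, F6, F8 and F10 had 1298, 1230, 1068, 2237 and 1538 CPM, an order kept for the values of treated females of every gene. Treated males thus lay above all vehicle-treated males and inside the range of the vehicle-treated females, apart from M10 at 1543 CPM, just above it. The rise was 3.37-fold in males (log2FC 1.75 ± 0.28, SE, edgeR adjusted p = 5.42e-05). In females the log2FC was 0.61 ± 0.29 (edgeR adjusted p = 0.124), and the groups overlapped. The difference between the responses of the sexes, 1.15 ± 0.40 on the log2 scale, did not pass (edgeR adjusted p = 0.0598).

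Igf2, the fetal growth factor that shares enhancers with H19, was close to the lower limit of the counts. It had 4 to 13 counts in vehicle-treated males, 5 to 16 in treated males, 13 to 21 in vehicle-treated females and 17 to 39 in treated females. In CPM the means were 0.442 ± 0.148 (SD, n = 6), 0.572 ± 0.227 (n = 6), 0.761 ± 0.126 (n = 6) and 1.13 ± 0.455 (n = 5) in the same order. All treated mice stood within or above the vehicle-treated range of their sex, and ranges overlapped in both sexes. Of its 5723 exon bases, 3596 are also exon of Gm49394 on the same strand, which had 0 counts in every mouse (up to 0.166 CPM allowed), and reads in shared bases were not assigned to a gene. Igf2 levels are therefore low estimates.

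Meg3, Rian and Mirg, the maternally expressed RNAs of chromosome 12, were all lower in treated than in vehicle-treated males, and 2 of them passed. Meg3 is a long noncoding RNA known to limit proliferation. It had 16.0 to 28.5 CPM (median 27.3) in vehicle-treated males and 9.73 to 18.5 CPM (median 13.7) in treated males. In females it had 25.4 to 52.7 CPM (median 34.9) with vehicle and after corticosterone 16.4, 18.9, 21.8, 26.7 and 21.5 CPM. In each sex all treated mice but 1 (M12 and F8) lay below all vehicle-treated mice. Meg3 fell 1.82-fold in males (log2FC -0.87 ± 0.19, SE, edgeR adjusted p = 0.00123) and 1.69-fold in females (log2FC -0.75 ± 0.20, edgeR adjusted p = 0.00867). The call in females was lost in 18 of 33 alternatives, with adjusted p between 0.00116 and 0.0505, while the log2FC stayed between -0.85 and -0.61. Leaving out any 1 of F2, F3, F4, F5, F6, F9, F10, F11, M2, M8, M9, M10 and M11 lost it, with adjusted p of at most 0.029.

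Rian, the host of a large group of small nucleolar RNAs, had 11.8 to 19.6 CPM (median 17.4) in vehicle-treated males and 6.65 to 13 CPM (median 8.39) in treated males. In females it had 16.4 to 43.8 CPM (median 27.9) with vehicle and after corticosterone 14.4, 15.7, 19.7, 26.5 and 24.4 CPM. Among males all treated mice but M10 lay below all vehicle-treated mice, while 3 of 5 treated females lay within the vehicle-treated range. Rian fell 1.76-fold in males (log2FC -0.82 ± 0.21, SE, edgeR adjusted p = 0.00455), and its log2FC in females was -0.51 ± 0.22 (edgeR adjusted p = 0.094). The call in males was lost when M1, M7, M9, M2, M4 or M6 was left out, with adjusted p of at most 0.013.

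Mirg, the most distal host with the largest set of miRNAs, was low, with 0.635 to 1.4 CPM (median 1.04) in vehicle-treated males and 0.5 to 0.996 CPM (median 0.574) in treated males. Vehicle-treated females had 0.634 to 1.94 CPM (median 1.44) and treated females 1.14, 1.25, 1.21, 1.57 and 1.83 CPM. Its log2FC was -0.70 ± 0.25 in males (SE, edgeR adjusted p = 0.0299) and 0.01 ± 0.24 in females (edgeR adjusted p = 0.984). Neither passed, and the difference between the sexes, -0.71 ± 0.35, did not pass (edgeR adjusted p = 0.162). Beside the falls of Meg3 and Rian in males, 7 of 10 fibroblast markers fell in males and 2 of 10 in females, and the part of that in the values of the noncoding RNAs was not tested.

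Dlk1, a membrane protein related to the Notch ligands that is known in fetal and regenerating muscle and in preadipocytes, is read from the paternal copy at the start of the same cluster. It had 0.732 to 1.96 CPM (median 1.11) in vehicle-treated males and 0.166 to 1.32 CPM (median 0.408) in treated males. In females it had 1.14 to 4.79 CPM (median 2.04) with vehicle and after corticosterone 1.23, 0.578, 0.364, 0.591 and 0.556 CPM. A single treated mouse of each sex, M8 and F2, reached into the vehicle-treated range. In counts it had 15 to 41 in vehicle-treated and 3 to 30 in treated males, and 24 to 98 and 9 to 27 in females. Neither treated group alone would have passed the gene filter, so that the sizes of the falls rest on low counts. Dlk1 fell 3.58-fold in females (log2FC -1.84 ± 0.44, SE, edgeR adjusted p = 0.00427). In males the log2FC was -1.25 ± 0.44 (edgeR adjusted p = 0.027), and without M8 it was -1.84 and passed (edgeR adjusted p = 0.00172). M8 had the highest hepatocyte marker sum (2634 CPM). F10 with a sum of 2581 CPM had 0.556 CPM of Dlk1, and F2, the high treated female, had a sum of 49.2 CPM. The part of the hepatocyte transcripts in these Dlk1 values was not tested. The call in females was lost without F9 (edgeR adjusted p = 0.0134), without F6 (0.0161) or without F10 (0.0128).

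Peg3, a zinc finger protein of the paternal copy known from muscle stem cells and from cell death pathways, stood higher in treated mice without passing edgeR's test in either sex. Vehicle-treated males had 14.5 to 36.1 CPM (median 21.4) and treated males 18.9 to 98.1 CPM (median 40.8). Vehicle-treated females had 13.3 to 58.0 CPM (median 31.8) and treated females 64.8, 66.8, 77.2, 68.6 and 83.2 CPM. In females the groups did not overlap, and in males 3 treated mice, M8, M12 and M10, stood above all vehicle-treated mice. The log2FC was 1.17 ± 0.40 in females (SE, edgeR adjusted p = 0.0332) and 1.10 ± 0.39 in males (edgeR adjusted p = 0.0271). DESeq2 called it in males (1.11, adjusted p = 0.00889) and not in females (1.15, adjusted p = 0.0148), and limma-voom in neither. The highest values in treated mice were in those with many hepatocyte transcripts, M8 and M12 among treated males and F10 and F6 among treated females. Among vehicle-treated males M11 was highest for Peg3 (36.1 CPM, hepatocyte sum 330.0 CPM), and M9 had 24.5 CPM (sum 1565 CPM). The treated male M10 had 53.2 CPM with a sum of 41.4 CPM. Without the 5 mice with most hepatocyte transcripts the log2FC was 0.42 ± 0.40 in males (edgeR adjusted p = 0.443) and 1.04 ± 0.40 in females (edgeR adjusted p = 0.110). Apart from this fit, the part of the hepatocyte transcripts in the Peg3 level was not tested.

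Plagl1, a zinc finger transcription factor of the paternal copy that is known to regulate other imprinted genes, had 0.767 to 2.06 CPM (median 1.33) in vehicle-treated and 0.850 to 2.43 CPM (median 1.33) in treated males. Vehicle-treated females had 1.04 to 3.77 CPM (median 1.44) and treated females 4.82, 4, 7.19, 1.38 and 5.17 CPM. All treated females but F8 thus lay above all vehicle-treated females. The log2FC was 1.30 ± 0.37 in females (SE, edgeR adjusted p = 0.0135) and 0.07 ± 0.37 in males (edgeR adjusted p = 0.900), and neither passed in edgeR. The value in females passed in DESeq2 (1.28, adjusted p = 0.00492) and in limma-voom (1.66, adjusted p = 0.000415). Without F8 the value in females was 1.53 and passed (edgeR adjusted p = 0.00189), as it did without F3 with 1.66 (edgeR adjusted p = 0.00224). F8 also had the lowest sum of adipocyte markers among treated females, 46.3 CPM, and F6 the highest, 4296 CPM, beside 2179 CPM in F2, 1905 CPM in F10 and 575 CPM in F4. Among vehicle-treated females F5 had a sum of 1843 CPM with 1.47 CPM of Plagl1, F3 1608 CPM with 3.77 CPM and F9 1012 CPM with 2.2 CPM. F1, F7 and F11 had sums of at most 117 CPM with at most 1.42 CPM of Plagl1. The part of the adipocyte transcripts in the Plagl1 level was not tested.

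Grb10, an adaptor that binds the insulin and IGF1 receptors and dampens their signal, changed in females. Vehicle-treated females had 60.4 to 86.6 CPM (median 69.4) and treated females 50.1, 45.8, 45, 46.3 and 50.5 CPM. Vehicle-treated males had 29.0 to 51.7 CPM (median 34.3) and treated males 33.1 to 42.8 CPM (median 37.5). All treated females lay below all vehicle-treated females, and the male groups lay on top of each other. Grb10 fell 1.48-fold in females (log2FC -0.57 ± 0.12, SE, edgeR adjusted p = 0.0017), and its log2FC in males was 0.04 ± 0.11 (edgeR adjusted p = 0.829). The difference between the responses, 0.60 ± 0.17, did not pass in edgeR (adjusted p = 0.0261) and did in DESeq2 (adjusted p = 0.00506).

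Cdkn1c, the cyclin-dependent kinase inhibitor p57 that holds cells out of the cycle, varied little. It had 18.4 to 24.7 CPM (median 20.2) in vehicle-treated males, 16.3 to 19.8 CPM (median 18.2) in treated males and 14.3 to 22.3 CPM (median 16.9) in vehicle-treated females. Treated females had 16.6, 16.1, 16.4, 17.3 and 16.9 CPM. Groups overlapped in both sexes. The log2FC was -0.21 ± 0.09 in males (SE, edgeR adjusted p = 0.0682) and -0.08 ± 0.10 in females (edgeR adjusted p = 0.602).

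**Figure D2:**
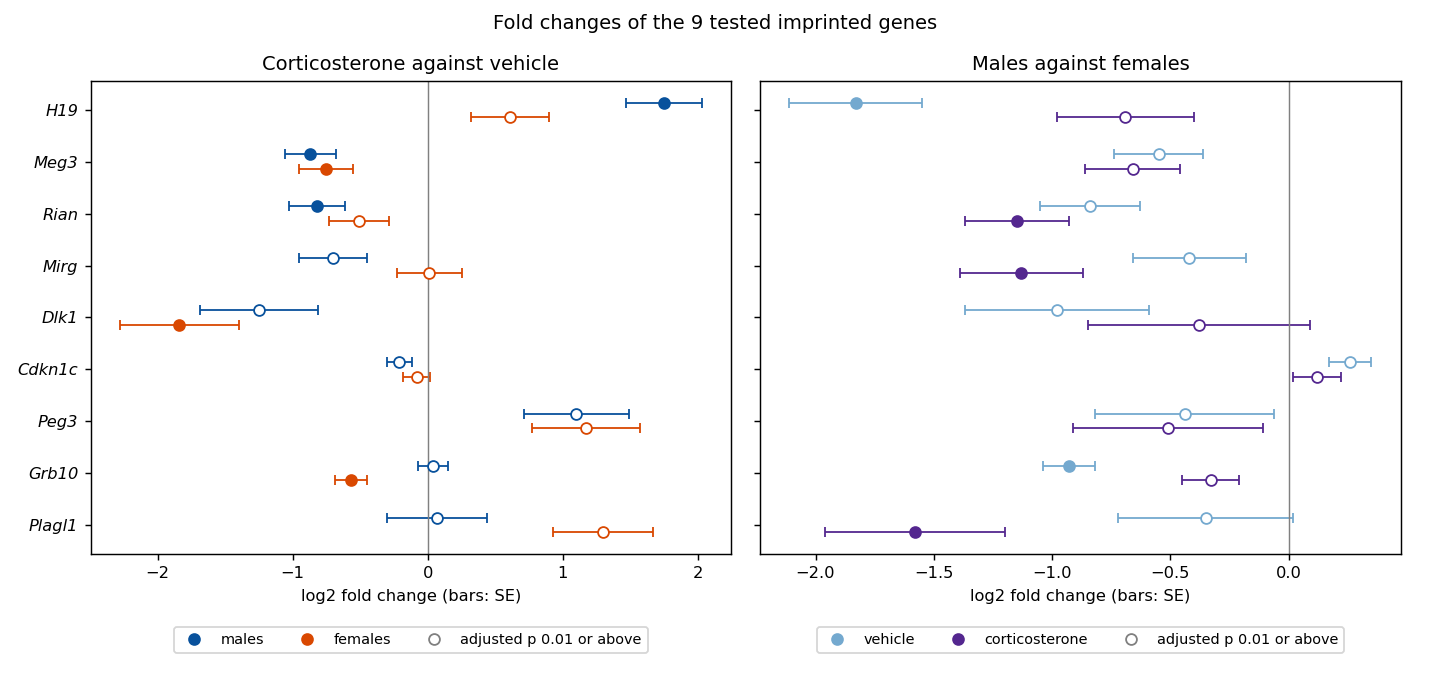
Log2 fold change (horizontal axis) of the 9 tested genes, with bars of 1 SE, for corticosterone against vehicle in each sex (left) and for males against females under each treatment (right); filled points passed the adjusted p threshold of 0.01. H19 in males (1.75) and Dlk1 in females (-1.84) are the largest treatment changes that passed, and all filled points on the right lie below 0.

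Between the sexes, 2 of 9 members were called lower in males with vehicle and 3 of 9 with corticosterone, and none was called higher. Comparisons between the sexes use the same groups as the comparisons above, and since the sources used here do not state whether both sexes were processed together, sex and batch cannot be told apart. With vehicle, H19 was 3.56-fold lower in males (log2FC -1.83 ± 0.28, SE, edgeR adjusted p = 0.000443) and Grb10 1.91-fold lower (log2FC -0.93 ± 0.11, edgeR adjusted p = 2.48e-05). For both, every vehicle-treated male lay below every vehicle-treated female, with 180 to 427 against 573 to 1504 CPM of H19 and 29.0 to 51.7 against 60.4 to 86.6 CPM of Grb10. These 2 of 9 members compare with 0.958% of all tested genes called between vehicle-treated males and females, 0.69% higher and 0.268% lower in males, and with 2.55% whose groups did not overlap. Rian stood 0.84 ± 0.21 lower on the log2 scale, which did not pass in edgeR (adjusted p = 0.0314) and did in DESeq2 (adjusted p = 0.0052). Cdkn1c was the single member with a higher mean in vehicle-treated males, 20.9 ± 2.35 against 17.5 ± 2.91 CPM (SD, n = 6 each, edgeR adjusted p = 0.174).

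With corticosterone, 3 members were called lower in males and none higher, against 23.3% of all tested genes, 9.31% higher and 14% lower. Rian was 2.22-fold lower (log2FC -1.15 ± 0.22, SE, edgeR adjusted p = 0.00063) and Mirg 2.19-fold lower (log2FC -1.13 ± 0.26, edgeR adjusted p = 0.00194). Mirg had 10 to 21 counts in treated males and 25 to 46 in treated females. Treated males alone would not have passed the gene filter for Mirg, so that the size of this difference rests on low counts. Plagl1 was 3-fold lower (log2FC -1.58 ± 0.38, edgeR adjusted p = 0.00271). Treated males lay below all treated females for Rian (6.65 to 13 against 14.4 to 26.5 CPM), Mirg (0.5 to 0.996 against 1.14 to 1.83 CPM) and Grb10 (33.1 to 42.8 against 45 to 50.5 CPM), 3 of 9 members where 12.4% of all genes did not overlap. Grb10 had a log2FC of -0.33 ± 0.12, which did not pass (edgeR adjusted p = 0.0319). H19, called between vehicle-treated males and females, stood 0.69 ± 0.29 lower in treated males than in treated females (log2 scale, edgeR adjusted p = 0.0622). None of these 3 calls held without the 5 mice with most hepatocyte transcripts, where adjusted p was 0.0285 for Rian, 0.0879 for Mirg and 0.0728 for Plagl1 with log2FC of -1.13, -0.96 and -1.38. The call of Mirg was also lost without F10 (edgeR adjusted p = 0.0103) and that of Plagl1 without F6 (edgeR adjusted p = 0.0135).

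No member passed the test of the difference between the male and the female response, which 0.69% of all tested genes passed. At an unadjusted p under 0.05, H19 (0.00907), Grb10 (0.00143) and Plagl1 (0.0294) did, 3 of 9 members, as did 4187 of all 13049 tested genes, so that the members' share was near the background. The differences were 1.15 ± 0.40, 0.60 ± 0.17 and -1.23 ± 0.53 on the log2 scale (males minus females, SE). DESeq2 called 1 member, Grb10, and limma-voom none.

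Within groups, the 3 noncoding RNAs of chromosome 12 varied together from mouse to mouse. After the mean of each group was taken off the log2 CPM, Pearson's r over the 23 mice was 0.80 for Rian and Mirg, 0.76 for Meg3 and Rian, and 0.67 for Meg3 and Mirg. Dlk1, the paternally expressed gene of the same cluster, had an r of 0.20 with Meg3, 0.10 with Rian and -0.04 with Mirg. Peg3 on chromosome 7 had an r of 0.71 with Rian and 0.50 with Meg3. H19 ran mostly apart from the others, with values between -0.35 (Grb10) and 0.37 (Mirg). Every point is 1 library, so that the genes share its depth, normalization and cell makeup, and these correlations are descriptions. The log2 ratio of Meg3 to Rian counts within a mouse was 0.60 ± 0.12 in vehicle-treated males, 0.57 ± 0.33 in treated males (SD, n = 6 each), 0.32 ± 0.32 in vehicle-treated females (n = 6) and 0.09 ± 0.18 in treated females (n = 5).

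**Figure D3:**
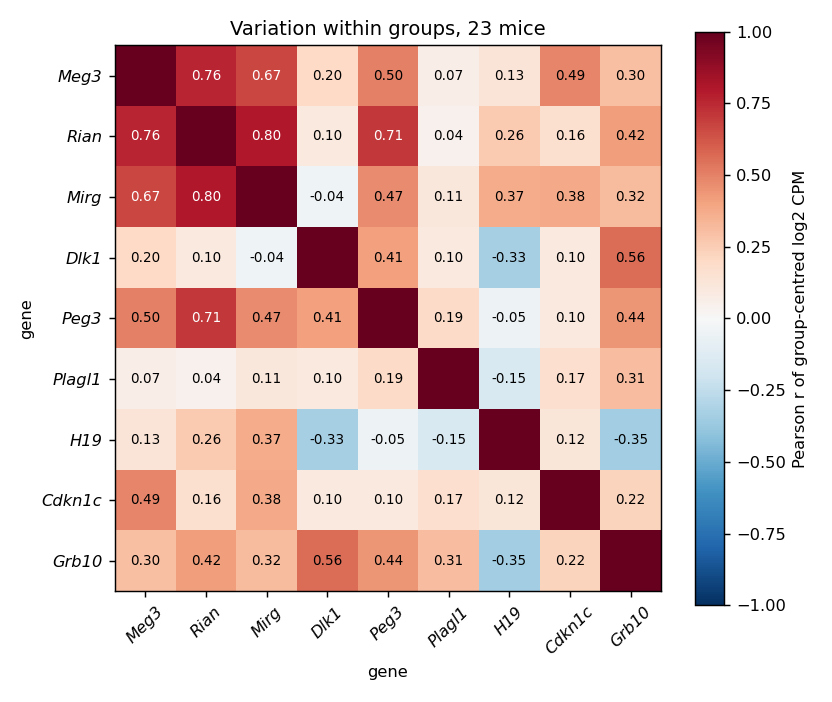
Pearson's r of group-centred log2 CPM between the 9 tested genes over 23 mice (both axes genes; colour from -1 in blue to 1 in red, values printed). The block of Meg3, Rian and Mirg has r from 0.67 to 0.80, and Dlk1 has at most 0.20 with any of these 3 RNAs.

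The same measure was used to name, for each member, the 2 tested genes outside the members whose deviations were most like its own over the 23 mice. Other members were left out, and for Mirg, Rian (0.80) was closer than either gene named. They were Tango2 (r = 0.86) and Il11ra1 (0.86) for H19, Arhgap31 (0.82) and Chek2 (0.80) for Meg3, and Slc2a10 (0.81) and Tbx1 (0.81) for Rian. Mirg had Gm43737 (0.76) and again Slc2a10 (0.71), and Peg3 had Tbx1 (0.86) and Bmp5 (0.83). For Dlk1 they were Rprd2 (0.74) and Castor2 (0.73), for Cdkn1c Gm45605 (0.80) and Shank3 (0.78), for Grb10 Auts2 (0.89) and Acvr2a (0.82), and for Plagl1 Clmp (0.90) and Gsn (0.85). Slc2a10 and Tbx1 were each named for 2 members.

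Other imprinted genes moved in both directions. Of 60 on a list of imprinted genes, some imprinted in certain tissues only, 41 were tested. In males 6 rose and 10 fell, and in females 6 rose and 2 fell. None differed between vehicle-treated males and females or in the interaction, and with corticosterone 3 were higher and 12 lower in males. The list's median log2FC was -0.18 in males and 0.11 in females, beside -0.02 and 0.04 over all genes. Calcr, the calcitonin receptor, also a marker of muscle stem cells, fell with a log2FC of -2.26 ± 0.40 in males (edgeR adjusted p = 0.000142) and -2.26 ± 0.46 in females (edgeR adjusted p = 0.00123). It had 18 to 42 counts in vehicle-treated and 2 to 9 in treated males, and 13 to 28 and 0 to 8 in females. Calcr passed the gene filter through vehicle-treated mice only, and treated values reached below 3 counts, so that the sizes of its falls are uncertain. Peg13, a noncoding RNA inside Trappc9, rose by 1.79 ± 0.13 in males (edgeR adjusted p = 7.15e-09) and 1.01 ± 0.13 in females (edgeR adjusted p = 2.46e-05) on the log2 scale. Bcl2l1, which protects cells from apoptosis, rose by 1.53 ± 0.22 (edgeR adjusted p = 1.26e-05) and 1.30 ± 0.22 (edgeR adjusted p = 0.000317). Mest, a relative of the hydrolases that is read from the paternal copy, fell in males with -1.98 ± 0.46 (edgeR adjusted p = 0.00178) and had a log2FC of 0.10 in females, and Qpct, the glutaminyl cyclase, fell in males with -1.48 ± 0.32 (edgeR adjusted p = 0.00103) and had -0.08 in females. Slc22a3, an organic cation transporter, rose in females with 2.41 ± 0.61 (edgeR adjusted p = 0.00635) and had -0.70 in males. Slc22a3 had 8 to 79 counts in vehicle-treated and 16 to 389 in treated females, so that these groups overlapped. Mest had 43 to 280 counts in vehicle-treated and 12 to 36 in treated males.

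**Figure D4:**
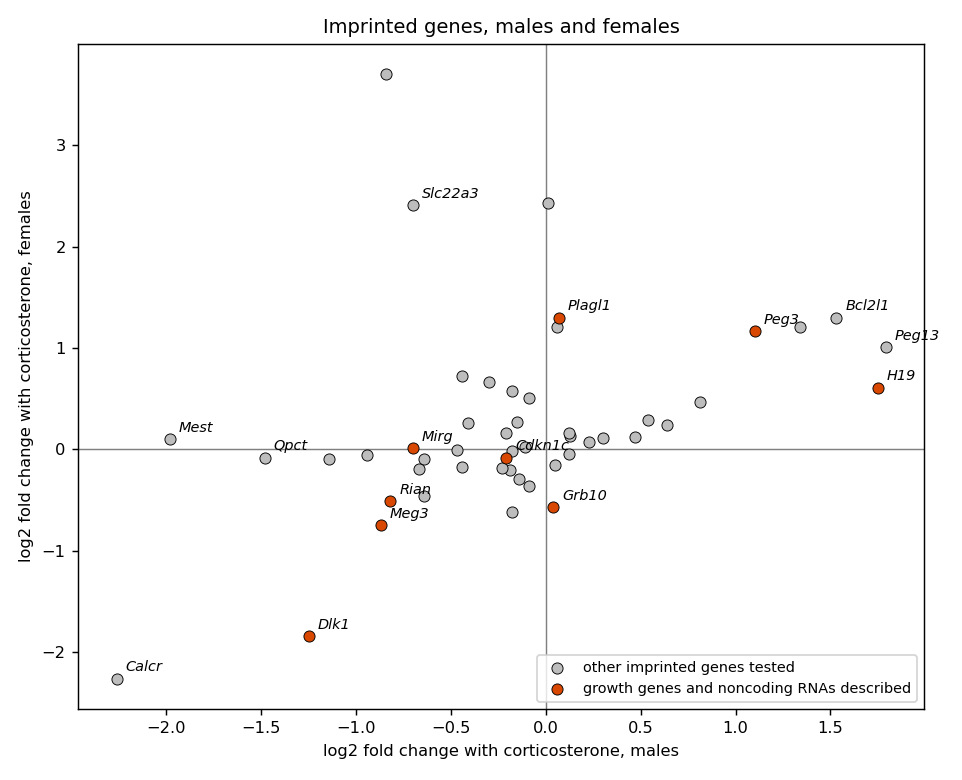
Log2 fold change with corticosterone in males (horizontal) and females (vertical) of the 9 tested genes described here (orange) and the 41 other tested imprinted genes (grey); names mark the former and the 6 others with the largest changes that passed in either sex. H19, Peg3, Peg13 and Bcl2l1 lie at the upper right, Dlk1 and Calcr at the lower left, and Mest and Qpct at the left near 0 for females.

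Of 19 genes for IGF ligands, receptors and their binding proteins, the setting in which Igf2 and Grb10 act, 13 were tested. In males 3 rose and 3 fell, and in females 2 rose and none fell. Stc2, a secreted inhibitor of the protease that frees IGF from Igfbp4, rose in males from 2.10 ± 0.609 to 16.5 ± 4.97 CPM (SD, n = 6 each, log2FC 2.97 ± 0.32, edgeR adjusted p = 5.45e-07). In females it had 7.26 ± 1.95 CPM with vehicle (n = 6) and 9.36 ± 6.01 CPM with corticosterone (n = 5). With vehicle it was already lower in males than in females (log2FC -1.78 ± 0.31, edgeR adjusted p = 0.0018). Stc2 passed the test of the difference between the sexes (2.60 ± 0.44, edgeR adjusted p = 0.00607). Igfbp5 fell in males from 679 ± 411 to 141 ± 76.7 CPM (log2FC -2.27 ± 0.40, edgeR adjusted p = 0.000135). In females it had 590 ± 258 CPM with vehicle (SD, n = 6) and 217 ± 56.6 CPM with corticosterone (n = 5) and was not called. Igfbp5 did not pass the test of the difference between the sexes. Igfbp3 rose with 1.65 ± 0.21 in males (edgeR adjusted p = 2.82e-06) and 1.67 ± 0.21 in females (edgeR adjusted p = 1.89e-05). Of 15 factors that set or keep DNA methylation at imprints, 10 were tested: 1 rose and 2 fell in males, and 1 rose and 1 fell in females. The de novo methyltransferase Dnmt3a fell in males from 57.8 ± 8.26 to 37.0 ± 2.28 CPM (log2FC -0.64 ± 0.10, edgeR adjusted p = 3.32e-05) and in females from 51.6 ± 7.08 to 36.5 ± 4.53 CPM (log2FC -0.50 ± 0.10, edgeR adjusted p = 0.00154). Uhrf1, which guides the maintenance methyltransferase, rose in females with 2.11 ± 0.49 (edgeR adjusted p = 0.00368), from 8 to 24 counts with vehicle to 9 to 106 with corticosterone. In males it had 0.521 ± 0.417 CPM with vehicle and 1.26 ± 0.599 CPM with corticosterone (SD, n = 6 each) and was not called. Uhrf1 did not pass the test of the difference between the sexes.

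Markers of muscle stem cells and of other cells moved beside these genes. Of 10 satellite cell markers 2 rose and 2 fell in males, and 1 rose and 4 fell in females. Pax7 was among those that fell in females (log2FC -1.84 ± 0.32, edgeR adjusted p = 0.00039). In males it had 3.04 ± 0.639 CPM with vehicle and 1.60 ± 0.405 with corticosterone (SD, n = 6 each) and was not called. The sum of the 10 markers was 91.3 to 115 CPM (median 100) in vehicle-treated and 114 to 149 CPM (median 128) in treated males. In females it was 94.6 to 124 CPM (median 103) and 98.5 to 118 CPM (median 106). Of 10 Schwann cell and 10 macrophage markers, 7 each were lower in treated males than in treated females, as were 9 of 10 fibroblast markers. No hepatocyte marker passed in any comparison. Of 9 tested adipocyte markers 1 rose in females (Lep), and 2 were lower in treated males than in treated females. The part of these cells in the levels of the imprinted genes was not tested, apart from the fits without the 5 mice with most hepatocyte transcripts. In those fits H19, Meg3 and Dlk1 were called in males, no member was called in females, and H19 and Grb10 were called between vehicle-treated males and females. For the calls within a sex lost in those fits, which had fewer mice, the log2FC in females was -0.59 for Grb10 (-0.57 with all mice). For Meg3 in females it was -0.80 (-0.75), for Dlk1 in females -1.58 (-1.84) and for Rian in males -0.83 (-0.82).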

How the data were processed

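Quadriceps RNA of 23 mice in 4 groups of sex and treatment was analysed. The authors aligned read pairs to mm10 with STAR 2.7.3a in two-pass mode, counted those assigned to a single Ensembl gene by strand with HTSeq-count 0.12.4, and deposited raw counts per gene and mouse. The 5 summary entries for unassigned pairs (10.7% to 15.3% of a mouse's pairs) entered neither library sizes nor tests. GENCODE M21 (GRCm38) gave symbols and positions for 55480 of 55573 gene IDs, and RefSeq (GRCm38.p6) the miRNA and promoter sequences.

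Counts were tested in R 4.3.3 with edgeR 4.0.16 (quasi-likelihood, TMM, 1 mean per group, all mice, Benjamini-Hochberg adjustment, threshold 0.01) on the 13049 genes for which 4 or more mice of a group had over 20 normalized counts. Levels are CPM, and correlations used log2 CPM with a prior count of 1. Depth was 20904150 to 21984477 gene counts per mouse and normalization factors 0.832 to 1.21. No replicates agreed within sampling noise (lowest chi-square per degree of freedom 15.1). Alternatives were DESeq2 1.42.0, limma-voom (limma 3.58.1) with quality weights, median-of-ratios scaling, filterByExpr (15045 genes), no filter (31922 genes), each sex alone, a replicate block, a looser threshold of 0.05, a limit of 1 on the log2FC, leaving out each mouse, and leaving out F10 with M8. Leaving out F6, F10, M8, M9 and M12 was chosen after seeing the data. Scripts were tested on simulated counts.

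The 10 members and all gene lists were chosen with earlier results of these data known. Named beside the members are up to 6 other imprinted genes and up to 3 genes of each further list with the largest log2FC past the threshold in either sex, and for each member the 2 genes outside the members with the most similar deviations. Pax7 and Lep were named after their values were seen. One gene that this rule names is not reported here.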

Additional observations from a re-analysis of the deposited data

Results flagged for a closer look

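Of the 40 sets of mice examined (10 genes in 4 groups), 4 held a mouse whose distance to the next was large against the range of its group, and chance gives about 5% of sets. H19 in M10 was 1543 CPM, with the other treated males between 618 and 955 CPM. Mirg in M10 was 0.996 CPM, with the others between 0.5 and 0.648 CPM. Dlk1 in M8 was 1.32 CPM, with the other treated males between 0.166 and 0.431 CPM. M8 also had the most hepatocyte transcripts (2634 CPM summed over 10 markers), and F10 had 2581 CPM of them and 0.556 CPM of Dlk1. The part of the hepatocyte transcripts in the Dlk1 value of M8 was not tested. Dlk1 in F2 was 1.23 CPM, with the other treated females between 0.364 and 0.591 CPM.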

How the results depend on the processing

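Of 45 values (9 genes in 5 comparisons), 11 were called, and none of these 11 changed sign under any of 33 alternatives each. The calls of H19 in males and of H19 between vehicle-treated males and females held under all of them, and each other call was lost under at least 1. Of the 34 values not called, 9 passed under some alternative and 6 changed sign under some alternative. Leaving out 1 mouse added Grb10 between treated males and females without M7 (adjusted p = 0.00973, edgeR) and Meg3 there without F11 (0.00819), M3 (0.00969) or M12 (0.00505). The causes were not tested.

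Members called, 3 in males, 3 in females, 0 in the interaction, 2 between vehicle-treated and 3 between treated males and females, became 1, 1, 0, 1 and 3 with a limit of 1 on the log2FC and 6, 5, 1, 3 and 5 at a threshold of 0.05. DESeq2 gave 4, 4, 1, 3 and 4, each sex fitted alone gave 1 in females, and without F6, F10, M8, M9 and M12 (fewer samples) 0 passed in females and 0 between treated males and females. Leaving out 1 mouse gave 2 to 4 in males, 1 to 4 in females (1 without F6, F9 or F10), 0 in the interaction, 2 between vehicle-treated and 2 to 4 between treated males and females.

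All genes called numbered 3426 in males, 1748 in females, 90 in the interaction, 125 between vehicle-treated and 3043 between treated males and females. With a limit of 1 on the log2FC they numbered 982, 732, 40, 75 and 1014, and at 0.05 5191, 3485, 1648, 309 and 5095. DESeq2 gave 909 in the interaction and 277 between vehicle-treated males and females, limma-voom 693 in the interaction, no filter 10 in the interaction, and each sex fitted alone 561 in females. Without F10 and M8 the interaction had 4 and treated males and females 1382. Without F6, F10, M8, M9 and M12 females had 460, the interaction 3 and treated males and females 290. Leaving out 1 mouse gave 2888 to 3643 in males, 1004 to 2359 in females (1004 without F6, 1117 without F2), 1 to 893 in the interaction (1 without M3, 893 without F8, 398 without F4, 302 without F3, 49 without F2, 41 without M5, 38 without F7, 35 without M1, 26 without F11, 20 without M9, 14 without F6, 13 without M8, 10 without M6, 9 without F9, 8 without M7 or M10, 6 without F1 or M11, 5 without M4, 4 without F10), 99 to 138 between vehicle-treated and 1885 to 3742 between treated males and females (1885 without F10, 2009 without F6).

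Within a sex no replicate number holds both treatments, so that a replicate block could pair numbers only across sexes. Same-numbered females and males had correlations from -0.377 to 0.477 over 11 numbers. Of the 11 females, 4 correlated best with the male of their number. With so few numbers this does not settle whether the numbers pair the mice. With the replicate block 0 members and 97 genes were called in the interaction, 2 members and 137 genes between vehicle-treated and 1 member (Rian) and 2262 genes between treated males and females. Counts of 4 to 39 for Igf2, and of 3 to 30 for Dlk1 and 10 to 46 for Mirg in treated mice, limit what can be said of them.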
